A study of Dendrobium catenatum with 16 samples.

Results

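Cytochrome P450 enzymes were followed across hormone treatments of cultured plantlets of Dendrobium catenatum, an orchid whose stems are used in traditional medicine. Members were the genes whose deposited description, up to the first field separator, held the words cytochrome P450 or 7-ethoxycoumarin O-deethylase, in any case. The rule found 133 of 28537 features. Of these, 122 carried a P450 family number and 1 was placed in the CYP76 family by its name alone. A further 2 were NADPH-cytochrome P450 reductases and 8 had no family number. The P450 protein domain stood in the deposited annotation of 128 of the 133, and 83 other genes with that domain were left out because their descriptions use other words, many of them enzyme names.

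Cytochrome P450s are membrane-bound haem enzymes that insert oxygen into small molecules, typically using electrons passed from NADPH by a reductase. Plants carry very many of them. Some families make or inactivate hormones, others build cutin, suberin, lignin, sterols or flavonoids, and the large CYP71 group makes much of the specialised chemistry for which medicinal plants are used. Family numbers group P450s by sequence, so a number tells little about the substrate where a family is large, and the roles given here come from other species unless stated. By family number the 133 members fell into the CYP71, CYP76 and CYP89 families of mostly specialised metabolism (48), jasmonate and fatty acid families (22), brassinosteroid families (17), the CYP72A and CYP749A families (9), flavonoid families (6), gibberellin families (5), sterol families (5), CYP78A organ growth genes (4), phenylpropanoid families (3), the strigolactone family CYP711A (2), the reductases (2), the carotenoid family CYP97B (1) and members with no assigned role (9).

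RNA came from young leaves, stems and shoots, and 16 poly(A) libraries were sequenced. In the first experiment, plantlets aged 2 months spent 3 weeks on medium with distilled water, with 0.1 mg/L of the synthetic auxin NAA, with 1.0 mg/L of the synthetic cytokinin 6-BA, or with NAA and 6-BA together, with 2 libraries a group. In the second, plantlets aged 9 months received no 6-BA or a dose of 0.5, of 1.0 or of 2.0 mg/L and were sampled at 2 or 4 weeks, with 1 library for each dose and week. All groups shared a germination medium of Murashige and Skoog salts with sucrose, agar and potato. The labels call the libraries of the first experiment biological replicates but give no culture vessel, so its p-values measure the spread between these samples.

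Depth, as the total count per library divided by 1e6, lay between 34.3 and 74.5 for the first experiment, while the second had 15.1 to 16.3. Libraries of the first experiment resembled each other, with Spearman correlations of 0.975 to 0.995 across genes, and those of the second less so, at 0.832 to 0.971. Summed levels of 19 photosynthetic leaf markers were 27300 to 34440 CPM (reads of a gene per 1e6 counted in its library, with TMM factors) in the first experiment and 12940 to 41900 CPM in the second, and 7 root markers summed to 85.8 to 119 CPM and 69.4 to 164 CPM. None of these markers was at 0 in all libraries of an experiment. Fewer cells of a type and less RNA per cell cannot be told apart in such tissue pools.

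Most of the family was expressed in this tissue, and a few members held much of the signal. The first experiment's table listed 126 of the 133 members, 3 of them with no count in any library, and 114 had enough counts to be tested. All 133 were listed in the second experiment, 7 with no count, and 100 were tested. The members listed only in the second table are loci described by the P450 domain alone. Per transcript length (FPKM, fragments scaled to gene length and library size), the family made up 0.262% to 0.299% of all signal in the libraries of the first experiment and 0.169% to 0.274% in those of the second.

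LOC110097959, a CYP89A2, had the highest level of the family in both experiments, at 190 ± 14 FPKM (SD, n = 8 libraries over all groups) in the first and 235 ± 83.9 FPKM (SD, n = 8) in the second. In Arabidopsis, a CYP89A enzyme acts on chlorophyll breakdown products. The CYP71D8-like LOC110114010 followed at 122 ± 15.4 FPKM and 184 ± 86.4 FPKM, a gap to the first that lay within the SD in the second experiment. The reductases, which serve other P450s as electron donors, were both among the 8 highest, at 104 ± 9.87 FPKM for LOC110093050 and 84.4 ± 4.83 FPKM for LOC110111466 in the first experiment. LOC110094269, a CYP72A15, was the steadiest of the leading genes in the first experiment at 98.1 ± 3.63 FPKM. The CYP86A8 LOC110095646 averaged 94.1 ± 20.0 FPKM and the CYP71A1 LOC110104859 averaged 90.3 ± 30.1 FPKM, so their order among neighbours was within their spread. A different pattern was seen for LOC110098667, a CYP71A1-like gene at 77.7 ± 36.7 FPKM in the first experiment and 6.95 ± 3.56 FPKM in the second. Plant age, time and experiment changed together between these values, and they were scaled separately, so that difference was not tested.

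**Figure D1:**
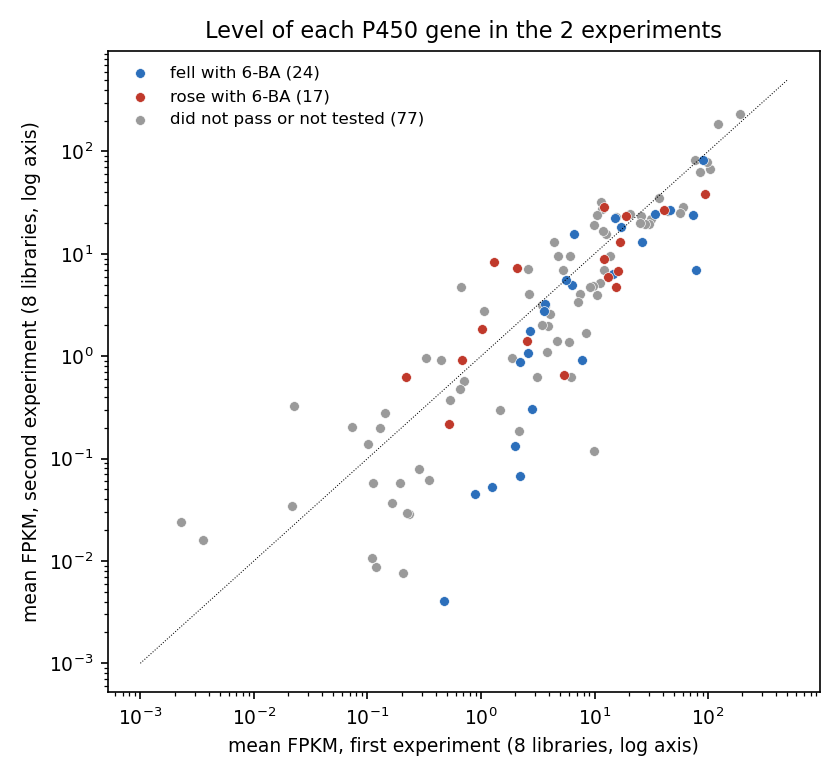
Mean FPKM of P450 genes in the first experiment (x axis, log scale, 8 libraries) against the second (y axis, log scale, 8 libraries), for the 118 genes above 0 in both. Colours give the call for 6-BA averaged over NAA, with untested genes shown among those that did not pass. Genes that rose or fell are found at low and high levels, though the highest, LOC110097959, did not pass. The dotted line marks equal values.

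6-BA changed P450 genes in both directions. Averaged over the groups with and without NAA, 41 of 112 tested members passed edgeR's quasi-likelihood test at a Benjamini-Hochberg adjusted p of 0.05, 17 higher and 24 lower. This was 36.6% of the members, beside 13.3% of all 19303 genes tested. By direction, 15.2% of members rose beside 5.85% of all genes, and 21.4% fell beside 7.43%. Rises and falls balanced, with a median log2 fold change of 0.02 beside 0.00 over all genes. At an unadjusted p under 0.05 by the same test there were 57 members (50.9%), beside 28.1% of all genes. Of the 41, 19 changed at least 2-fold (7 rises and 12 falls), and in 37 the 4 libraries with 6-BA did not overlap the 4 without. Neither number was counted over all genes, and the call itself favours such a gap. All 41 kept their direction when any single library was left out, 27 kept the call throughout, and the number of rises was 11 without water replicate 2 or without 6-BA replicate 1. Of the 7 root markers, 1 rose and 2 fell in the same comparison, and of 19 leaf markers 1 rose, and their part in the P450 changes was not tested.

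**Figure D2:**
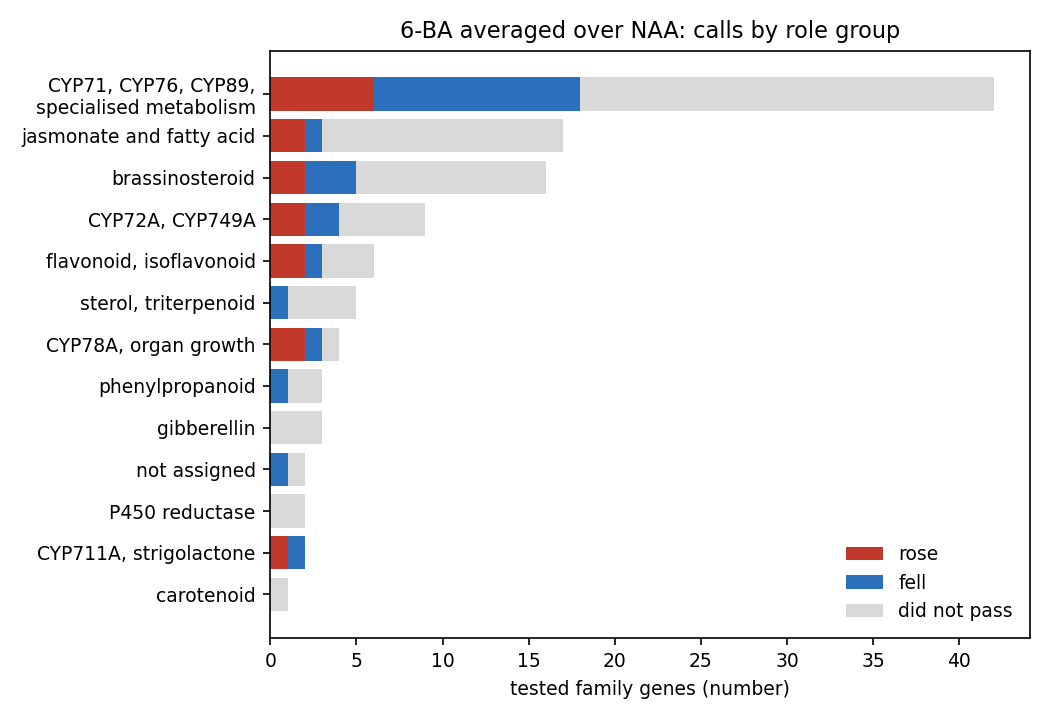
Number of tested P450 genes (x axis) in each role group (y axis) that rose, fell or did not pass for 6-BA averaged over NAA, by edgeR's quasi-likelihood test at an adjusted p of 0.05. The group of CYP71, CYP76 and CYP89 holds 18 of the 41 calls, 6 rises and 12 falls, and 42 of the 112 tested genes.

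The CYP71, CYP76 and CYP89 families of specialised metabolism held 18 of the 41 calls and 42 of the 112 tested members. Of those 42 members 6 rose and 12 fell. For this and the role groups below, the shares of all genes were 5.85% higher and 7.43% lower, and no role group was tested against them. LOC110093703, a CYP71A9-like gene, was at 1.76 and 2.94 CPM with water and 5.45 and 3.43 CPM with NAA, but at 0.109 and 0.0749 CPM with 6-BA and 0.0394 and 0.0517 CPM with both hormones. Every library with 6-BA was thus far below every library without, a log2 fold change of -5.59 (SE 0.42, adjusted p = 3.3e-05 by edgeR).

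LOC110097125, a CYP71A1-like gene, was at 2.02 and 2.65 CPM with water, 4.19 and 2.06 CPM with NAA, 0 and 0 with 6-BA and 0.25 and 0 CPM with both. Set against a floor of 3 counts in each library, its level with 6-BA was at least 42.1-fold lower than with water. LOC110098083, another CYP71A1-like gene, ran from 0.69 to 2.46 CPM without 6-BA and from 0 to 0.092 CPM with it, a log2 fold change of -4.62 (SE 0.58, adjusted p = 0.000679). These genes were low in the controls too, so a fall of this depth leaves almost no counts. In the second experiment LOC110093703 reached 0.189 CPM at most, LOC110098083 0.171 CPM and LOC110097125 0.566 CPM, so no dose effect could be read there.

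Falls of abundant CYP71A genes were shallower and more tightly measured. LOC110098667, the CYP71A1-like gene described above, fell from 172 and 201 CPM with water and 168 and 141 CPM with NAA to 66.3 and 71.0 CPM with 6-BA and 70.9 and 63.6 CPM with both. Its log2 fold change was -1.32 (SE 0.086, adjusted p = 1.36e-05), the lowest p of the family. LOC110104859, a CYP71A1, stood at 237 and 266 CPM with water, 177 and 195 CPM with NAA, 114 and 127 CPM with 6-BA and 123 and 124 CPM with both, so it was highest with water, lower with NAA and lowest with 6-BA. The 6-BA difference was -0.82 on the log2 scale (SE 0.097, adjusted p = 0.000499). The CYP71A1 genes LOC110097434 and LOC110093613 also fell, by 1.08 and 0.49.

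Among CYP71D genes, named in other plants for terpenoid and alkaloid oxidation, a pair of neighbours fell together. LOC110107744, a CYP71D7-like gene, went from 15.2 and 19.6 CPM with water and 24.2 and 15.0 CPM with NAA to 0.781 and 1.61 CPM with 6-BA and 2.94 and 1.52 CPM with both (log2 -3.46, SE 0.33, adjusted p = 0.000632). LOC110107745, a CYP71D7, went from 34.2 and 48.8 CPM and 68.7 and 34.0 CPM to 7.92 and 11.1 CPM and 6.54 and 7.07 CPM in the same order of groups (log2 -2.52, SE 0.31, adjusted p = 0.0034). No library with 6-BA reached the lowest library without it in either gene. CYP71D8-like LOC110114010, the second most abundant member, did not pass, with a log2 difference of 0.23 (adjusted p = 0.0603).

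The largest rise among genes of at least 1 CPM on average was that of LOC110095638, annotated as 7-ethoxycoumarin O-deethylase-like. Its name comes from CYP76B1 of Jerusalem artichoke, an enzyme known for removing alkyl groups from foreign compounds. It was at 3.42 and 6.06 CPM with water, 9.99 and 11.3 CPM with NAA, 40.8 and 47.1 CPM with 6-BA and 52.9 and 37.1 CPM with both. The groups were well apart, with a log2 fold change of 2.62 (SE 0.30, adjusted p = 0.00238).

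Further CYP71A1 genes rose from low levels. LOC110102873 went from 1.07 and 1.05 CPM with water and 0.63 and 0.238 CPM with NAA to between 2.07 and 3.38 CPM in the 4 libraries with 6-BA (log2 1.88). LOC110105033 went from between 0.536 and 1.56 CPM without 6-BA to between 3.02 and 3.52 CPM with it (log2 1.49). LOC110096469 ran from 1.75 to 4.44 CPM without and from 4.62 to 7.32 CPM with 6-BA (log2 1.30), and its call was lost in 6 of the 8 fits that each left out 1 library (highest adjusted p = 0.105 by edgeR). LOC110114269, a CYP71A1-like gene, rose by most in fold (log2 3.11, SE 0.45, adjusted p = 0.00155) but was at 0.843 CPM at most. CYP71A genes thus moved in both directions, and within the CYP71 family 5 of 35 tested members rose and 11 fell.

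**Figure D3:**
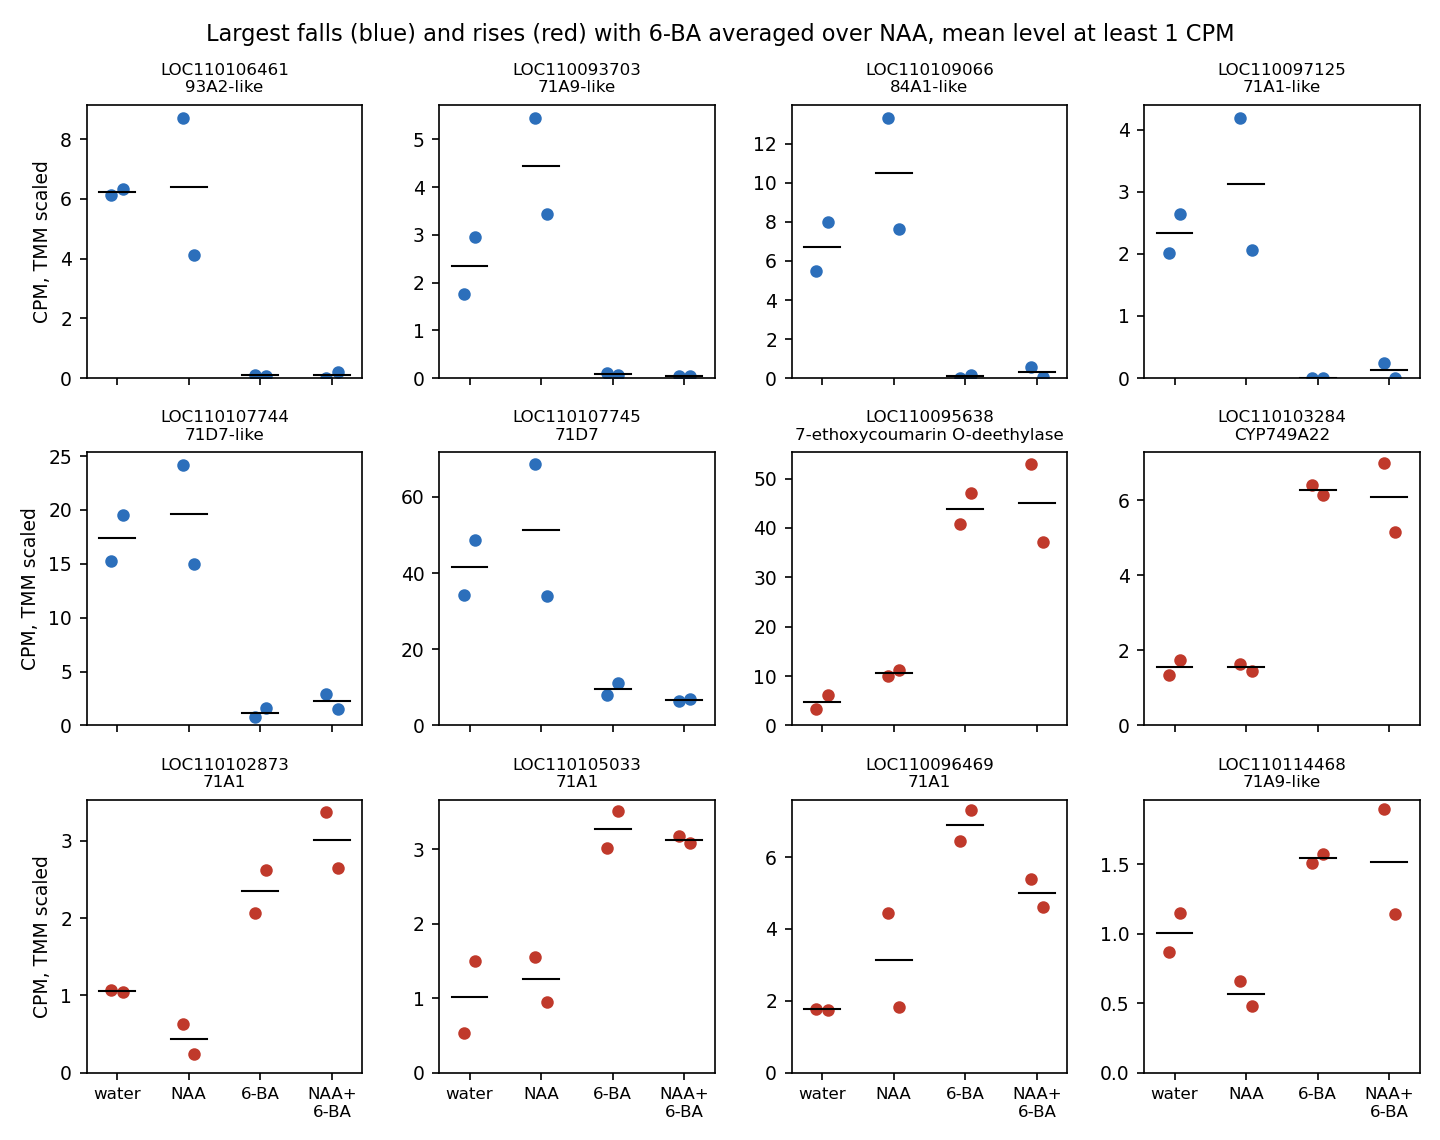
CPM (TMM scaled, y axis from 0) of the P450 genes with the largest falls (blue) and rises (red) for 6-BA averaged over NAA, in the 4 groups of the first experiment (x axis), each point 1 library. In each fall shown, and in each rise shown of at least 2-fold, the 4 libraries with 6-BA lie apart from the 4 without.

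In the phenylpropanoid and flavonoid families, 1 low-level gene of each fell deeply, and some abundant members did not pass or rose slightly. CYP84A enzymes are ferulate 5-hydroxylases, which direct lignin towards syringyl units in Arabidopsis. LOC110109066, a CYP84A1-like gene, was at 5.49 and 7.99 CPM with water, 13.3 and 7.66 CPM with NAA, 0.0182 and 0.15 CPM with 6-BA and 0.591 and 0.0345 CPM with both (log2 -5.38, SE 0.64, adjusted p = 0.00225). The other CYP84A1, LOC110097166, averaged 44.1 FPKM in the first experiment beside 2.80 FPKM for LOC110109066, and neither it nor the CYP98A2 LOC110101632 (56.6 FPKM) passed. CYP98A enzymes hydroxylate p-coumaroyl esters on the way to lignin.

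Among the 6 flavonoid members, 2 rose and 1 fell. LOC110106461, named for soybean CYP93A pterocarpan hydroxylases, was at 6.13 and 6.31 CPM with water, 8.71 and 4.11 CPM with NAA, 0.109 and 0.0749 CPM with 6-BA and 0 and 0.207 CPM with both. This was the largest fitted fall of the family (log2 -6.06, SE 0.54, adjusted p = 0.000233). The abundant CYP93G1 LOC110098549, whose rice namesake is a flavone synthase, rose slightly, from between 65.1 and 78.2 CPM without 6-BA to between 87.3 and 93.4 CPM with it (log2 0.36). LOC110112271, a CYP81D1, rose by 0.31 on the log2 scale, a call lost in 4 of the 8 fits that each left out 1 library (highest adjusted p = 0.0715 by edgeR).

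CYP72A enzymes include secologanin synthase of Catharanthus. Of 9 tested CYP72A and CYP749A genes 2 rose and 2 fell. LOC110104696, a CYP72A15, was at 215 and 240 CPM with water, 196 and 183 CPM with NAA, 79.7 and 83.3 CPM with 6-BA and 96.4 and 84.7 CPM with both. All 4 libraries with 6-BA lay below the 4 without (averaged log2 -1.27, SE 0.092, adjusted p = 2.98e-05 by edgeR). Summed over these CYP72A and CYP749A genes, levels were 373 ± 20.8 FPKM with water, 355 ± 19.4 with NAA, 291 ± 6.94 with 6-BA and 299 ± 6.42 with both (SD, n = 2 each).

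A pair of adjacent CYP749A22 genes moved in opposite directions. LOC110103284 (bases 101137 to 104120, plus strand) rose from 1.35 and 1.75 CPM with water and 1.64 and 1.46 CPM with NAA to 6.39 and 6.12 CPM with 6-BA and 6.99 and 5.15 CPM with both (log2 1.99, SE 0.16, adjusted p = 4.5e-05). Its neighbour LOC110103291 (bases 106213 to 108148, plus strand) fell from 15.0 and 14.9 CPM and 15.4 and 12.6 CPM to 5.71 and 6.18 CPM and 5.3 and 6.45 CPM in the same order (log2 -1.29, SE 0.11, adjusted p = 5.22e-05). The 2 genes lie 2093 bases apart on 1 scaffold. With water the second was about an order of magnitude above the first, and with 6-BA they stood within the same range.

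Positions came from the deposited tables, which name no genome build. Of the members, 25 lay in 12 runs with gaps of at most 50000 bases on 1 scaffold, 11 runs being pairs. Neighbours outside the family were not counted. Of the 10 runs with at least 2 members tested for 6-BA averaged over NAA, 3 had at least 2 genes called. Beside the CYP749A22 pair these were the CYP71D7 pair (bases 1614663 to 1617797, plus strand, and 1651075 to 1652742, minus strand) and a CYP71A9 pair (bases 315909 to 320716 and 331868 to 334171, both minus strand). In the CYP71A9 pair both fell: LOC110099854 from 0.817 to 2.19 CPM without 6-BA down to 0.164 to 0.393 CPM with it (log2 -2.67, SE 0.39, adjusted p = 0.00157), and LOC110099851 from 12.8 to 15.5 CPM down to 9.91 to 10.6 CPM (log2 -0.46). How reads were divided between near-identical copies is not stated, so values of such neighbours are less certain.

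Among hormone-related families, CYP90B and CYP711A each had 1 gene that rose and 1 that fell. Brassinosteroids are steroid growth hormones, made in steps that include CYP90B (the C-22 hydroxylase), CYP90A, CYP90D and CYP85A, and inactivated by CYP734A. Of 16 tested members of these families 2 rose and 3 fell. The CYP90B2-like LOC110114986 fell from 72.1 and 86.3 CPM with water and 84.1 and 65.8 CPM with NAA to 47.5 and 50.5 CPM with 6-BA and 55.3 and 49.1 CPM with both (log2 -0.61, SE 0.092, adjusted p = 0.00213). A second CYP90B2, LOC110114079, moved the other way, from between 4.01 and 5.48 CPM to between 6.29 and 8.25 CPM (log2 0.60), a call lost in 4 of the 8 fits that each left out 1 library (highest adjusted p = 0.0622 by edgeR).

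Later brassinosteroid steps were also split. CYP85A1, the last step in the list, was LOC110112633, at 27.7 and 29.0 CPM with water, 23.4 and 25.1 CPM with NAA, 37.0 and 35.7 CPM with 6-BA and 38.6 and 37.3 CPM with both (log2 0.50, SE 0.074, adjusted p = 0.00169). The CYP90D2 LOC110107619 fell by 0.71 and the CYP90A1 LOC110101203 fell by 0.23 on the log2 scale, the latter losing its call in 3 of the 8 fits without 1 library (highest adjusted p = 0.0608 by edgeR). No CYP734A gene passed.

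Strigolactones, which restrain branching, need MAX1, a CYP711A in Arabidopsis. Of the 2 CYP711A genes, the CYP711A1-like LOC110107898 rose from 0.204 and 0.449 CPM with water and 0.274 and 0.298 CPM with NAA to 1.09 and 1.39 CPM with 6-BA and 1.41 and 1.84 CPM with both (log2 2.2, SE 0.32, adjusted p = 0.00153). CYP711A1 LOC110097408, the more abundant copy, ran from 4.93 to 5.57 CPM without 6-BA and from 3.55 to 3.94 CPM with it (log2 -0.45), and its call was lost in 7 of 8 such fits (highest adjusted p = 0.093 by edgeR). None of the 3 tested CYP714 genes of gibberellin metabolism passed, and CYP714B3 LOC110098748 was nearest (log2 0.35, adjusted p = 0.0631).

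CYP78A genes set organ size in plants, as KLUH (CYP78A5) does in Arabidopsis. Of 4 members 2 rose and 1 fell. CYP78A5 LOC110103275 was at 24.2 and 23.7 CPM with water, 16.8 and 19.9 CPM with NAA, 29.3 and 30.7 CPM with 6-BA and 24.8 and 27.9 CPM with both, so libraries with and without 6-BA did not overlap but lay close (log2 0.42). LOC110114083, also CYP78A5, rose by 0.51 (call lost in 4 of 8 such fits, highest adjusted p = 0.0926), and CYP78A4-like LOC110105775 fell by 0.50 (lost in 6 of 8, highest adjusted p = 0.135), both by edgeR.

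Fatty acid and jasmonate families, with 17 tested members, gave 2 rises and 1 fall. CYP86A enzymes hydroxylate the ends of fatty acids for cutin, and LOC110095646, the abundant CYP86A8, was at 152 and 172 CPM with water and at 240 and 250 CPM with NAA, 268 and 258 CPM with 6-BA and 280 and 282 CPM with both. Only the water libraries stood low. The CYP86B1 LOC110108993, from a family that acts on the very long chains of suberin, had a like order, with 13.3 and 19.0 CPM with water and between 22.5 and 28.9 CPM in the other groups (6-BA averaged over NAA, log2 0.47). Neither rise held in every fit without 1 library: for CYP86A8 (log2 0.45) the call was lost without water replicate 2 (adjusted p = 0.0521 by edgeR), and for CYP86B1 without either library of 6-BA alone (highest adjusted p = 0.0836). CYP94C1 LOC110116548, whose Arabidopsis namesake oxidises the active jasmonate, fell from between 26.7 and 32.1 CPM to between 17.3 and 23 CPM (log2 -0.50). Summed over this group, levels were 236 ± 30.7 FPKM with water, 310 ± 5.12 with NAA, 309 ± 9.18 with 6-BA and 338 ± 10.8 with both (SD, n = 2 each).

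In the remaining groups, 1 of 5 sterol members fell, the CYP87A3-like LOC110094184 (log2 -0.93, call lost in 6 of 8 such fits, highest adjusted p = 0.0906 by edgeR). The carotenoid member CYP97B2 and the 2 reductases did not pass, the nearer reductase being LOC110093050 with a log2 difference of 0.16 (adjusted p = 0.152). Of the 2 tested members with no assigned role 1 fell, LOC110102915, whose deposited name follows an insect P450 (log2 -0.25, lost in 6 of 8, highest adjusted p = 0.102).

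The 6-BA response was next compared without and with NAA, in libraries that these 2 comparisons do not share. Without NAA, 31 of 114 members passed against water, 13 higher and 18 lower, which is 27.2% beside 7.35% of all 19420 genes (3.1% higher and 4.25% lower). With NAA in the medium, 26 passed against NAA alone, 8 higher and 18 lower, 22.8% beside 5.79% of all genes (2.03% higher and 3.75% lower). The same 20 members were called in both, 5 rises and 15 falls, all in the same direction, and they were 64.5% of the first list and 76.9% of the second. Over all 114 tested members, 90 had the same sign (78.9%). None of these overlaps was counted over all genes, so they are not set against a background. Without 6-BA replicate 2, the first comparison gave 4 rises and 9 falls, and without NAA replicate 1 the second gave 4 rises and 11 falls.

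Of the members called in 1 comparison, 11 passed without NAA alone and 6 with NAA alone, but the test of the difference between the 2 responses passed for 0 of 114 members, by edgeR's quasi-likelihood test, beside 0.505% of all genes. At an unadjusted p under 0.05 the count was 21, and DESeq2 called 4, all lower. The lowest adjusted p was 0.0995, for LOC110113842, a CYP77A4-like gene of the family that epoxidises fatty acids. It was at 67.5 and 81.9 CPM with water, 137 and 132 CPM with NAA, 130 and 117 CPM with 6-BA and 133 and 146 CPM with both. The water libraries stood low, and both libraries with 6-BA alone were below both with the mixture.

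**Figure D4:**
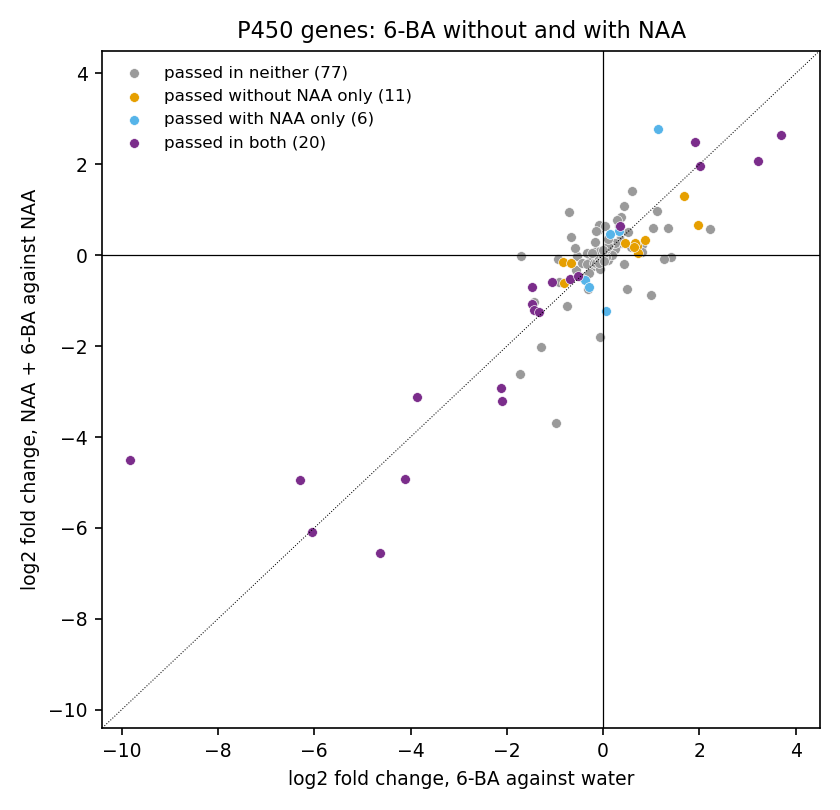
Log2 fold change of each of 114 P450 genes for 6-BA against water (x axis) and for NAA plus 6-BA against NAA (y axis), coloured by the edgeR call. The 20 genes called in both lie in the lower left (15) and upper right (5) of the plane, 77 passed in neither, 11 without NAA only and 6 with NAA only.

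Both hormones against water gave 15 rises and 20 falls, 30.7% of 114 members beside 7.23% of all genes (3.12% higher and 4.11% lower). Without water replicate 1, or without either library of both hormones, it gave 7 rises, and without water replicate 2 it gave 9 rises and 10 falls, while without replicate 1 of both hormones there were 11 falls. This comparison shares its water libraries with that of 6-BA alone, so its values are not a separate check. For LOC110095638 the fitted log2 fold change was 3.21 with 6-BA against water and 2.08 with 6-BA added to NAA. For LOC110104696 the same values were -1.48 and -1.07, a difference of 0.42 (SE 0.14) that did not pass (interaction, adjusted p = 0.341 by edgeR).

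NAA alone changed few P450s. Against water 3 members rose and 1 fell, 3.51% of 114 beside 2.35% of all genes tested (1.49% higher and 0.86% lower). CYP77A4-like LOC110113842, with the values above, rose most (log2 0.85, SE 0.11, adjusted p = 0.00274). CYP86A8 LOC110095646 rose by 0.59 (SE 0.088, adjusted p = 0.0058), a call lost without water replicate 1 (adjusted p = 0.0686). Both are placed with the fatty acid families by family number, and for both the 6-BA libraries were about as high as the NAA libraries.

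The third rise was LOC110116255, a CYP72A219-like gene at 36.9 and 47.5 CPM with water, 71.7 and 69.8 CPM with NAA, 53.3 and 61.4 CPM with 6-BA and 55.5 and 68.5 CPM with both (log2 0.74, SE 0.14, adjusted p = 0.0209). Its call was lost in 3 of 8 such fits (highest adjusted p = 0.144). The fall was that of LOC110104859 (log2 -0.43, SE 0.095, adjusted p = 0.0441), lost in 7 of 8 (highest adjusted p = 0.268 by edgeR). In the presence of 6-BA, NAA gave 0 calls among the 114 members, with 14 at an unadjusted p under 0.05 and 0 by DESeq2, beside 0.0% of all genes. Averaged over 6-BA it also gave 0 of 112, with 13 at an unadjusted p under 0.05 and 1 rise and 1 fall by DESeq2, again beside 0.0% of all genes.

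The second experiment had 1 library for each dose and week, and its fitted spread was far larger. No combination was replicated, so that spread came from the misfit of the model. It can hold differences between doses as well as variation between samples. As fitted, the biological coefficient of variation was 0.499 with any dose as the term, beside 0.122 for the 2-hormone model of the first experiment. No P450 passed for any dose, for a dose slope or for week (0 of 100 members each, by edgeR, beside 0.0% of all 21267 genes). At an unadjusted p under 0.05 there were 2, 0 and 6 members, and DESeq2 called 0, 0 and 1, the last higher at 4 weeks. Of 35 members called in the first experiment and tested here, 18 had the same sign for any dose, 9 of 16 rises and 9 of 19 falls.

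Among the members that changed with 6-BA in the first experiment, CYP85A1 LOC110112633 was higher at every dose here. At 2 weeks it was at 17.2 CPM without 6-BA and 26.8, 31.6 and 29.2 CPM with rising dose, and at 4 weeks at 16 CPM and 28.6, 28.7 and 21.6 CPM. All 6 treated libraries were above both untreated ones, with a log2 difference of 0.74 (SE 0.18, unadjusted p = 0.00397, adjusted p = 0.857), so it did not pass. The gene was chosen for this description after its values were seen, as were the others of this experiment that are named next, apart from LOC110103284, LOC110103291, LOC110104859 and LOC110095638.

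CYP749A22 LOC110103284 was at 1.32 CPM untreated and 5.56, 9.25 and 7.43 CPM with rising dose at 2 weeks, and at 5.74, 52.5, 24.2 and 3.54 CPM at 4 weeks. It was higher than untreated in 5 of 6 treated libraries, the exception being 2.0 mg/L at 4 weeks. Its neighbour LOC110103291 was at 5.15, 9.84, 9.18 and 5.69 CPM at 2 weeks and 6.54, 4.43, 17.2 and 5.25 CPM at 4 weeks, with no such order.

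The rises and falls of other leading genes did not recur in order of dose. LOC110095638 was at 88.7 CPM untreated and 39.2, 84.9 and 74.2 CPM treated at 2 weeks, and at 55.6 CPM and 60.7, 33.4 and 63.4 CPM at 4 weeks. LOC110104696, which fell in the first experiment, had log2 ratios to untreated of -0.09, 0.48 and 0.96 with rising dose at 2 weeks. At 4 weeks its ratios were 2.72, 2.18 and 0.47. For LOC110107744, which also fell there, the ratios were -2.83, -0.37 and -0.62 at 2 weeks and -0.70, 1.70 and 2.18 at 4 weeks. LOC110104859 was at 170 CPM untreated and 88.3, 254 and 240 CPM treated at 2 weeks, and at 38.5 CPM and 190, 197 and 60.0 CPM at 4 weeks. At 4 weeks the 0.5 and 1.0 mg/L libraries thus stood high and the 0 and 2.0 mg/L libraries low.

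That grouping of libraries recurred in other members in the opposite sense. LOC110101184, a CYP77A3, was at 9.3, 14.8, 0.361 and 0.656 CPM with rising dose at 2 weeks and at 15.9, 0, 0.0668 and 9.25 CPM at 4 weeks. LOC110113699, a CYP78A5, was at 5.03, 11.9, 0.868 and 0.656 CPM and at 11.2, 2.74, 0.2 and 19.9 CPM. Both were high in the untreated libraries, in 0.5 mg/L at 2 weeks and in 2.0 mg/L at 4 weeks. In those same 4 libraries 32 dividing-cell markers, 2 of them at 0 throughout, summed to 1274 to 2128 CPM, and in the other 4 to 403 to 633 CPM. In the first experiment the same markers summed to 1044 to 1319 CPM. Their part in the P450 values was not tested.

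A few members were high in 1 library. LOC110112147, a CYP81E8 of a family of isoflavone hydroxylases, was at 97.2 CPM with 1.0 mg/L at 4 weeks, at 15.8 CPM with 0.5 mg/L at 4 weeks and between 2.95 and 3.79 CPM in the other 6 libraries. LOC110093968, a CYP71A1, was at 241 CPM in the same 1.0 mg/L library and at 3.99 CPM in its lowest. Among members above 0 in all 8 libraries, the CYP89A2-like LOC110112418 varied most, its highest library being 101-fold its lowest, and LOC110113699 came next at 99.2-fold. Both ratios rest on a lowest library with few counts. Members at 0 in any library, such as LOC110101184, were left out of this ranking.

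**Figure D5:**
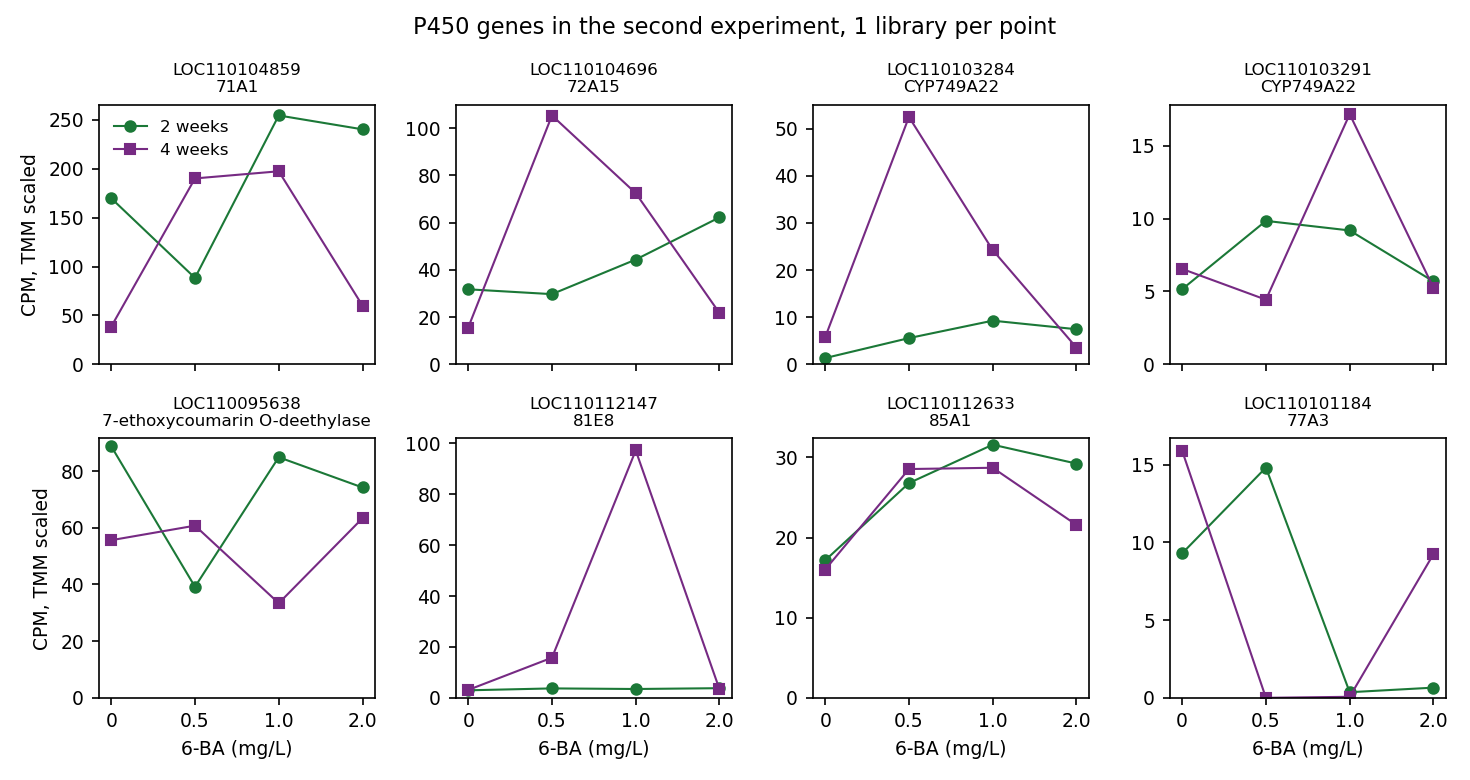
CPM (TMM scaled, y axis from 0) of 8 P450 genes by 6-BA dose in mg/L (x axis) at 2 and 4 weeks in the second experiment, each point 1 library with no replicate. CYP85A1 lies above its untreated level at every dose, CYP77A3 is near 0 in 4 libraries, and CYP81E8 is high in the 1.0 mg/L library at 4 weeks.

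Single doses were also set against the untreated library of the same week, with no test. Of 94 members with at least 1 CPM in at least 2 libraries, 12 were at least 2-fold higher and 13 at least 2-fold lower at 0.5 mg/L at 2 weeks, on the log2(CPM + 0.5) scale. This was 12.8% and 13.8%, beside 3.92% and 3.49% of all genes. At 1.0 mg/L the numbers were 5 and 14 (beside 3.7% and 9.85% of all genes), and at 2.0 mg/L 8 and 18 (beside 2.96% and 10.9%). At 4 weeks they were 29 and 23 at 0.5 mg/L (beside 13.9% and 16.8%), 34 and 18 at 1.0 mg/L (beside 13.8% and 15.7%) and 7 and 3 at 2.0 mg/L (beside 3.53% and 3.45%). With a pseudocount of 2 in place of 0.5, the numbers were 7 higher and 7 lower at 0.5 mg/L and 7 lower at 1.0 mg/L at 2 weeks, 5 higher at 2.0 mg/L at 2 weeks and 14 lower at 0.5 mg/L at 4 weeks, and with 0.1 there were 5 lower at 2.0 mg/L at 4 weeks. The 3 doses of a week share their untreated library. None of the 94 was at least 2-fold higher in all 6 treated libraries, and none was at least 2-fold lower in all 6, where 4 and 5 of 20393 genes were.

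P450s whose descriptions give an enzyme name in place of the family words were counted as well, from a list drawn by words. Of 69 such genes 62 were tested for 6-BA averaged over NAA, and 7 rose and 11 fell (29.0%, beside 13.3% of all genes tested). LOC110110860, an isoflavone 2'-hydroxylase, fell from between 144 and 206 CPM without 6-BA to between 42.8 and 50.1 CPM with it (log2 -1.84, SE 0.11, adjusted p = 1.32e-05). The premnaspirodiene oxygenase-like LOC110102594, a sesquiterpene enzyme by name, fell from between 2.21 and 4.98 CPM to between 0.0517 and 0.164 CPM (log2 -5.38, SE 0.42, adjusted p = 3.86e-05), and it overlaps a member locus on the same strand. Of 6 tested genes for abscisic acid 8'-hydroxylase, which breaks down that hormone, 4 did not pass, LOC110112069 rose (log2 1.31) and LOC110097017 fell (log2 -1.24). Among those 4, LOC110113154 rose with NAA against water (log2 1.475, adjusted p = 0.000499 by edgeR). It fell with 6-BA added to NAA (log2 -1.121, adjusted p = 0.000749 by edgeR). With 6-BA against water its log2 difference was 0.21 (adjusted p = 0.362 by edgeR), so the average over NAA hides these changes. Of 23 tested genes listed as redox partners, 1 rose and 2 fell, which is 13.0% and close to the 13.3% of all genes tested. Of the 24 listed, 13 were cytochrome b561 genes. Cytochrome b5 LOC110097867, an electron donor to some P450s, was among those that fell (log2 -0.29).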

How the data were processed

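Per the submitters' processing notes, HISAT2 2.0.6, Cufflinks 2.2.2 and edgeR (no version) were used, with no role given for each. The deposited tables give, per the file headers, a raw read count and an FPKM value per gene and library. The authors' FPKM were scaled by library totals in the first experiment and by another effective library size in the second, as the values show. Genome build, annotation and strandedness: not given in the sources used here. Reads of overlapping or near-identical genes may therefore be shared.

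Tests ran in R 4.3.3, on raw counts, through edgeR 4.0.16 (filterByExpr, TMM scaling, robust quasi-likelihood test, Benjamini-Hochberg adjustment over all genes at 0.05) and DESeq2 1.42.0. As a further alternative, limma 3.58.1 ran on log2 FPKM with 1 or 0.1 added. Results were summarised in Python 3.11.15 with pandas 2.3.3, NumPy 2.4.6 and Matplotlib 3.10.9. Models had 4 groups (19420 genes tested), additive NAA and 6-BA terms (19303) or, in the second experiment, week plus any dose or dose slope (21267). The test was tried on simulated counts with known changes. CPM intervals and floors cover counting error only.

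Members and lists were chosen with earlier results of these data known. Named members follow a rule of 5 parts: the 6 largest rises and falls per contrast of at least 2-fold with a mean of at least 1 CPM, every member called in the interaction or in the second experiment, the 8 highest by FPKM in each experiment, members at least 2-fold off in all 6 treated libraries, and neighbours called together, plus the lowest p of each role group. It named 32 distinct members, and any other was chosen after its values were seen. Alternatives are given in the closing section. Protein and promoter sequences were not used here.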

Additional observations from a re-analysis of the deposited data

How the results depend on the processing

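No result changed direction under any alternative, and single-gene calls were judged over 95 results, of which 80 passed the threshold. Leaving out each library in turn cost 35 of those 80 calls, in 25 genes, at least once. For 6-BA averaged over NAA, 27 of 41 calls held in every fit tried, 14 were lost in at least 1 fit without a library and 6 of these also under another setting. Counts of members called ranged, over fits without 1 library, from 11 to 17 rises and 18 to 23 falls for 6-BA averaged over NAA (17 and 24 with all), from 4 to 15 and 9 to 18 for 6-BA against water (13 and 18), from 4 to 9 and 11 to 18 for 6-BA added to NAA (8 and 18), from 7 to 18 and 10 to 20 for both hormones against water (15 and 20), from 1 to 5 and 0 to 3 for NAA against water (3 and 1), and from 0 to 1 and 0 to 1 for the interaction (0 and 0). Against water, 6-BA gave 5 rises without water replicate 1, 8 without 6-BA replicate 1 and 4 without 6-BA replicate 2, and 10 falls without water replicate 2, 11 without 6-BA replicate 1 and 9 without 6-BA replicate 2. Added to NAA, it gave 4 rises without NAA replicate 1 or without replicate 2 of both hormones and 5 without replicate 1 of both hormones, and 11 falls without NAA replicate 1 or without replicate 1 of both hormones. Both hormones against water gave 7 rises without water replicate 1 or without either library of both hormones and 9 without water replicate 2, and 10 falls without water replicate 2 and 11 without replicate 1 of both hormones. NAA gave 1 rise without water replicate 1 and 5 without water replicate 2, and the interaction 1 rise and 1 fall without NAA replicate 2. Where a group was left with 1 library, that library was assumed to vary like the others. DESeq2 gave 14 rises for 6-BA added to NAA, 5 rises and 4 falls for NAA against water, 4 falls for the interaction, 1 rise and 1 fall for NAA averaged over 6-BA and 1 rise for week, and scaling by library size alone gave 2 falls for NAA against water. For single doses, a pseudocount of 2 gave 7 members higher and 7 lower at 0.5 mg/L and 7 lower at 1.0 mg/L at 2 weeks, 5 higher at 2.0 mg/L at 2 weeks and 14 lower at 0.5 mg/L at 4 weeks, and a pseudocount of 0.1 gave 5 lower at 2.0 mg/L at 4 weeks. The cause of these moves was not tested. Differences between replicates 1 and 2 correlated at -0.25 to 0.28 between groups. With 2 libraries a group, these values cannot show whether samples with the same replicate number were handled together. With a replicate block in the model, 15 rises and 22 falls were called for 6-BA averaged over NAA, 12 and 16 for 6-BA against water, 7 and 15 for 6-BA added to NAA, 13 and 18 for both hormones and 3 and 1 for NAA. Depth limits the genes under 2 CPM, of which 4 of 27 rose and 4 fell, and 1 library per dose limits the second experiment.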
